A study of Mus musculus with 8 samples.

Results

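The comparison set CD4+ T cells kept under Th17 differentiation conditions against CD4+ T cells kept under Treg differentiation conditions, with RNA sequencing of 2 libraries a side. These were 4 of the 8 libraries of the study, taken by their labels. The comparison itself was chosen with earlier results of these data known. The Th17 libraries were replicates 2 and 3, and the Treg libraries were also replicates 2 and 3. The other libraries were 2 of Th0 cells, stimulated through CD3 and CD28, and 2 of naive CD4+ T cells taken straight from the spleen. All cells came from the spleen of wild-type C57BL/6 mice, and the Th17, Treg and Th0 cells were collected after 3 days. The cytokines and antibodies of the differentiation conditions, the age and sex of the mice, any pooling of animals and any sorting of cells at harvest are not given in the sources used here. Of 34745 genes in the deposited table, 14690 had enough counts to be tested.

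Th17 and Treg cells arise from the same naive CD4+ precursors. TGF-beta is needed for both fates in the mouse. With IL-6 or IL-21, signalling through STAT3 leads to Th17 cells, which make IL-17A, IL-17F and IL-22 and defend mucosal surfaces, and which drive tissue damage in several autoimmune models. With IL-2 and STAT5, TGF-beta instead induces the forkhead factor Foxp3 and a suppressive Treg state. The title of the study places this balance in the setting of the histone methyltransferase Setd2, autoimmunity and phospholipid remodeling.

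The promoters of Il17a, Il17f and Foxp3 are shown because these genes define the 2 states and because the adjacent Il17a and Il17f separated in these data. The 150 bases before each start site are printed 5′ to 3′ on the strand of the gene, from RefSeq on GRCm38.p6. Capitals mark AGGTCA on either strand, a half-site bound by several nuclear receptors, and TATAAA, the TATA box motif.
Il17a, chr1:20730755-20730904, plus strand: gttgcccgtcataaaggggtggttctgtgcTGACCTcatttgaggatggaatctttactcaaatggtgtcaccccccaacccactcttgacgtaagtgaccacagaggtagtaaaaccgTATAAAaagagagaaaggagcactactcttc
Il17f, chr1:20784271-20784420, minus strand: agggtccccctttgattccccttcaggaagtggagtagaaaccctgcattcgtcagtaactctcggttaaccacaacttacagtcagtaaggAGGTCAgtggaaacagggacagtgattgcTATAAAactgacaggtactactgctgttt
Foxp3, chrX:7579526-7579675, plus strand, the first of 2 listed start sites: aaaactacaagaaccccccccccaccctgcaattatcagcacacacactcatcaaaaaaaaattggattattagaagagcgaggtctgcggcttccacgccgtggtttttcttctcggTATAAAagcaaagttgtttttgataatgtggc
In Il17a the AGGTCA motif lay on the opposite strand, as TGACCT, and began 120 bases before the start site. In Il17f it lay on the strand of the gene and began 58 bases before the start site. The Foxp3 window of 250 bases before to 50 bases after the start site held no AGGTCA. The TATA box motif began 31, 29 and 32 bases before the start in Il17a, Il17f and Foxp3. None of the 3 windows held TTCNNNGAA, a STAT motif, on either strand. Of all 32851 RefSeq promoter windows of this length, 16.3% held AGGTCA, 8.3% held TTCNNNGAA and 13.6% held TATAAA, on either strand and with overlaps allowed. Windows were matched by symbol for 10289 of the 14690 genes tested, which gave 13103 windows, as a gene can have several start sites. Of these 13103 windows, 12.7% held AGGTCA. The share was 12.3% of 2039 windows of genes called higher in Th17 and 12.6% of 1973 windows of genes called lower.

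Totals were 16584279 and 13344484 counts in the Th17 libraries and 14767329 and 12504463 counts in the Treg libraries, in the order of replicates 2 and 3, which is kept below. A library with no count of a gene could still hold up to 0.176 and 0.227 CPM in Th17 or 0.197 and 0.23 CPM in Treg, taking 3 counts as the limit, for counting error only. CPM is the usual scaled count, here with library sizes adjusted by TMM. Replicates differed by more than sampling noise in both states, and the Pearson correlation of log2 CPM across genes was 0.984 between the Th17 libraries and 0.986 between the Treg libraries. Since the labels leave it unsaid whether each library is a separate animal or culture, the p-values speak to variation among libraries, some or all of which may be technical. The 2 naive libraries entered the fit through its estimate of the spread, the filter on low counts and the scaling. They went against their label in part, since they held markers of other cells beside those of T cells. Their summed pan T cell marker level was 4802 and 5179 CPM, against 4874 and 4920 CPM in Th17 and 6175 and 6332 CPM in Treg. Their summed myeloid marker level was 5349 and 5128 CPM and their summed B cell marker level 4325 and 3582 CPM. The summed levels in Th17 were 176 and 188 CPM for myeloid markers and 1167 and 1373 CPM for B cell markers, and in Treg 208 and 174 and 635 and 577 CPM. A fit without the naive and Th0 libraries called 3540 genes, of which 3385 were among those of the fit of all 8.

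Transcription differed widely between Th17 and Treg cells. At an edgeR adjusted p under 0.05, 4294 of the 14690 genes differed (29.2%), of which 2169 were higher in Th17 (14.8%) and 2125 lower (14.5%). These shares are the background against which each gene list is read. The fold was at least 2 for 847 genes higher in Th17 (5.77%) and 695 lower (4.73%), and 456 genes (3.1%) passed when tested for a change beyond 2-fold, 278 of them higher (1.89%) and 178 lower (1.21%). For 9613 genes (65.4%) the libraries of the 2 states did not overlap. Of the 4294 called genes this held for 4293, so that for a called gene the lack of overlap adds nothing to the call. The median log2 fold change over all genes tested was -0.03. The counts changed with the libraries used. Fewer genes were called without Th17 replicate 3, Treg replicate 2 or Treg replicate 3, and slightly more without Th17 replicate 2. A statement that a gene was higher or lower in Th17 means below that it passed this test in the fit of all libraries. For bulk RNA, fewer cells of a type and less RNA per cell cannot be told apart.

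**Figure D1:**
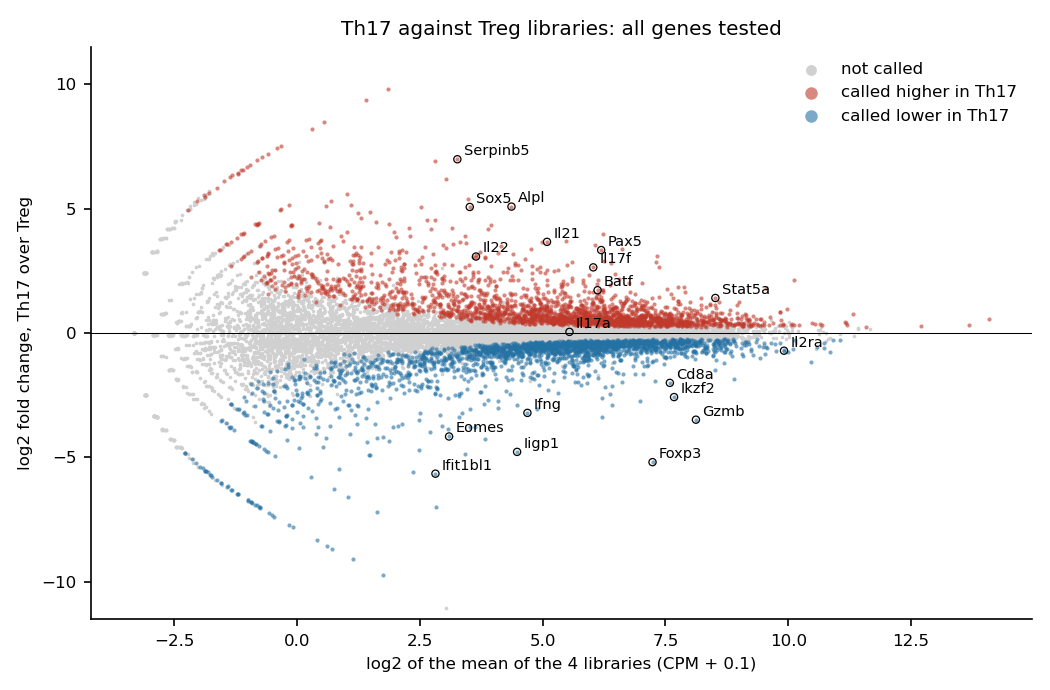
Each point is 1 of the 14690 genes tested, with the log2 fold change of Th17 over Treg on the y axis and the log2 of the mean CPM of the 4 libraries, plus 0.1, on the x axis. Red points were called higher and blue points lower in Th17. Il17f stands at 2.64 and Foxp3 at -5.19, while Il17a lies at 0.05. Points on the curved outer edges had no count in either library of 1 state, and their fitted values are no estimate of size.

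Foxp3, the factor that defines Treg cells, separated the 2 states as their labels name them. It lies on chromosome X from 7579676 to 7595243 on GRCm38, and measured 9.93 and 5.91 CPM in Th17, against 317 and 269.7 CPM in Treg (log2 fold change -5.19 with SE 0.22, and adjusted p = 3.13e-06 by edgeR). The Th0 libraries stood at 5.94 and 4.7 CPM, and the Treg libraries were the highest of the study. Per length, Foxp3 averaged 1.2 FPKM in Th17 and 45.4 FPKM in Treg.

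Il17a did not separate the 2 states. Its level was 60.9 and 33.7 CPM in Th17, against 57.4 and 34.3 CPM in Treg, so that the 2 states overlapped (log2 fold change 0.05 with SE 0.32, and adjusted p = 0.939 by edgeR). The 2 libraries of each state differed more from each other than the states did, and replicate 2 was the higher one in both. The sign of the difference turned with the libraries used, to -0.45 without Th17 replicate 2 and -0.28 without Treg replicate 3, in neither case past the threshold. All 4 libraries lay far above the Th0 libraries at 1.32 and 1.31 CPM and the naive libraries at 0.723 and 0.217 CPM. Its neighbour Il17f, which encodes the related cytokine that pairs with IL-17A, measured 136 and 89.5 CPM in Th17, against 23 and 13 CPM in Treg. Here all Th17 libraries lay above all Treg libraries (log2 fold change 2.64 with SE 0.29, and adjusted p = 0.000278 by edgeR). Per length, Il17a averaged 40.9 FPKM and Il17f 38.2 FPKM in Th17, while in Treg Il17a averaged 40.6 FPKM and Il17f 6.26 FPKM. Per length, the pair thus had similar means in Th17, while in Treg Il17a had the higher mean.

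Other cytokines of the Th17 program were higher in Th17. Of 13 genes in the list of Th17 cytokine and secreted effector genes, 10 were tested, 7 were higher and none lower, with a median log2 fold change of 0.86 against -0.03 for all genes. Il21, which feeds back on STAT3, measured 73.1 and 52.6 CPM in Th17, against 4.85 and 5.06 CPM in Treg (log2 fold change 3.67 with SE 0.27, and adjusted p = 3.29e-05 by edgeR). Il22, which acts on epithelial cells, measured 22.8 and 21.6 CPM in Th17, against 3.93 and 1.23 CPM in Treg (log2 fold change 3.08 with SE 0.41, and adjusted p = 0.000759 by edgeR). Il24, a relative of IL-10, stood at 82.2 and 75.9 CPM in Th17, against 15.7 and 18.7 CPM in Treg (log2 fold change 2.2, SE 0.14). In each of these 3 genes the lower Th17 library was above the higher Treg library. Furin, a protease that processes TGF-beta, was higher, with a log2 fold change of 0.68. Il10 and Lif were higher, with log2 fold changes of 0.89 and 0.83, but Il10 failed without Th17 replicate 3, Treg replicate 2 or Treg replicate 3 (log2 fold change 0.59, 0.85 and 0.91), and Lif failed at 0.20 without Th17 replicate 2 and at 0.93 without Treg replicate 2. The call of Lif was also lost without Treg replicate 3 (0.74), with upper-quartile scaling, DESeq2 and limma-voom, and in the fit of 4 libraries. Csf2, which encodes GM-CSF, was low in both states, at 2.76 and 1.21 CPM in Th17 and 2.49 and 1.3 CPM in Treg. No member was lower in Th17 in this fit, while 2 were in the unfiltered fit and 1 with the replicate block.

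**Figure D2:**
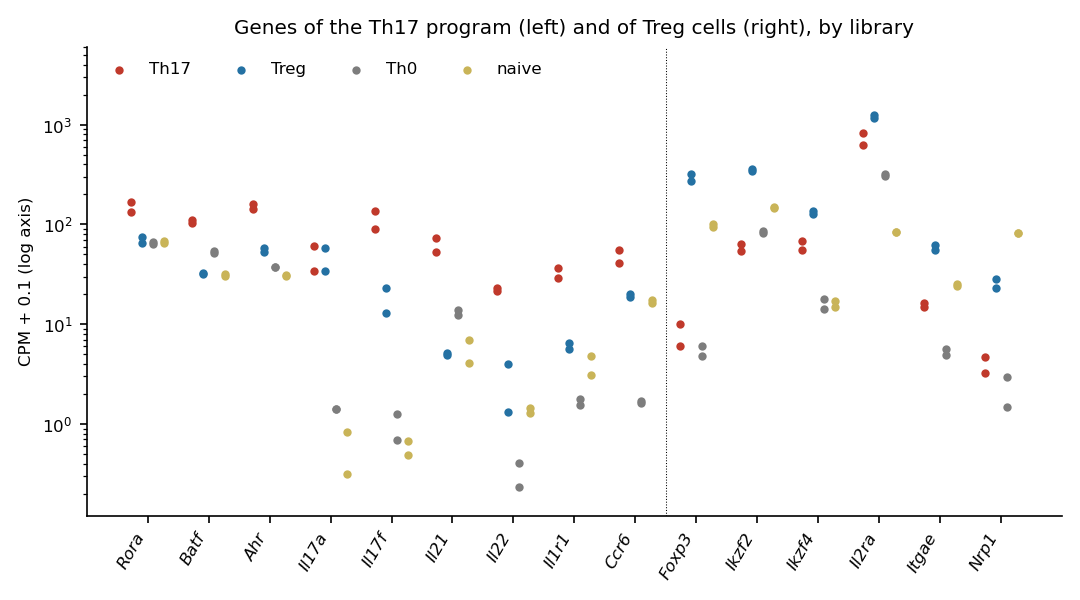
CPM plus 0.1 on a log axis for 9 genes of the Th17 program and 6 genes of Treg cells, with 1 point per library and the groups Th17, Treg, Th0 and naive from left to right within each gene. Il17f, Il21 and Il22 are higher in both Th17 libraries, Foxp3, Ikzf2 and Nrp1 are lower in both, and for Il17a the Th17 and Treg points overlap.

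The transcription factors of the Th17 program were nearly all higher. All 13 were tested, 12 were higher in Th17 and none was lower, and the median log2 fold change was 1.09. Fosl2, an AP-1 factor that restrains other fates, measured 374 and 362 CPM in Th17, against 91.7 and 115 CPM in Treg (log2 fold change 1.83 with SE 0.13, and adjusted p = 3.37e-05 by edgeR). Batf, the AP-1 factor that opens chromatin together with Irf4, measured 103 and 109.9 CPM in Th17, against 32.8 and 31.7 CPM in Treg (log2 fold change 1.72 with SE 0.10, and adjusted p = 1.48e-05 by edgeR). Ahr, the aryl hydrocarbon receptor needed for IL-22, measured 143 and 159.6 CPM in Th17, against 53.5 and 58.3 CPM in Treg (log2 fold change 1.44 with SE 0.10, and adjusted p = 2.81e-05 by edgeR). Rora, Maf, Bhlhe40, Nfkbiz and Hif1a were higher, with log2 fold changes of 1.09, 1.09, 1.11, 1.13 and 0.96. For all 8 of these genes both Th17 libraries lay above both Treg libraries. The exception was Stat3 itself, at 593 and 677 CPM in Th17, against 681 and 657 CPM in Treg (log2 fold change -0.08 with SE 0.09, and adjusted p = 0.555 by edgeR).

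Surface receptors of Th17 cells were mostly higher. Of 14 tested, 9 were higher and 2 lower in Th17, with a median of 0.77. Il1r1, the signalling receptor for IL-1, measured 36.2 and 29.2 CPM in Th17, against 5.5 and 6.36 CPM in Treg (log2 fold change 2.47 with SE 0.24, and adjusted p = 0.000152 by edgeR). Ltb4r1, a leukotriene B4 receptor, and Ccr6, the receptor for CCL20, were higher, with log2 fold changes of 1.51 (SE 0.26) and 1.34 (SE 0.16). Il23r, the receptor subunit for the cytokine that stabilises Th17 cells, was low at this time, with 4.93 and 2.12 CPM in Th17, against 0.721 and 1.15 CPM in Treg (log2 fold change 1.93 with SE 0.51, and adjusted p = 0.0212 by edgeR), and its call was lost without Th17 replicate 2, Treg replicate 2 or Treg replicate 3 (adjusted p = 0.175, 0.149 and 0.056). Without Treg replicate 2 the list counted 6 higher and 0 lower.

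The IL-6 and STAT3 list was shifted towards Th17, and the IL-2 and STAT5 list was divided. Of 12 tested IL-6 and STAT3 genes, 7 were higher and 2 lower (median 0.74). Socs3, the feedback inhibitor of gp130 signalling, measured 442 and 424 CPM in Th17, against 164 and 159 CPM in Treg (log2 fold change 1.42 with SE 0.10, and adjusted p = 2.62e-05 by edgeR). The kinase genes Pim1 and Jak2 were higher, with log2 fold changes of 0.75 and 0.52, and so were the receptor genes Il6ra and Il21r, at 0.81 and 0.72. The lower ones were Il6st, which encodes gp130, at 155 and 133 CPM in Th17 against 240.5 and 199 CPM in Treg (log2 fold change -0.61, SE 0.12), and Tyk2. Without Treg replicate 2 neither was called, and the log2 fold change of Il6st was -0.47. Tyk2, at -0.34, was also lost without Th17 replicate 3 or Treg replicate 3 (-0.31 and -0.29) and in the fit of 4 libraries (-0.32).

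Within the IL-2 pathway, the receptor chains were lower and the transcription factor was higher in Th17. Of 14 tested genes, 4 were higher and 4 lower, and 2 and 3 without Treg replicate 2. Il2ra, the high-affinity chain CD25, measured 830.0 and 632 CPM in Th17, against 1236 and 1157 CPM in Treg (log2 fold change -0.71 with SE 0.12, and adjusted p = 0.0027 by edgeR). Both states lay above the Th0 libraries at 324 and 307 CPM. Il2rb, the shared signalling chain, measured 339.6 and 299 CPM in Th17, against 670.0 and 539.7 CPM in Treg (log2 fold change -0.92 with SE 0.11, and adjusted p = 0.000493 by edgeR). Stat5a measured 510.4 and 553 CPM in Th17, against 201 and 199 CPM in Treg (log2 fold change 1.41 with SE 0.08, and adjusted p = 1.34e-05 by edgeR), the reverse of the receptor chains. Socs2, a STAT5 target, was lower at 36.5 and 17.3 CPM in Th17, against 73.2 and 78.8 CPM in Treg (log2 fold change -1.49 with SE 0.30, and adjusted p = 0.00644 by edgeR). Cish, another feedback inhibitor that IL-2 induces, did not pass (log2 fold change -0.20, SE 0.26), and was at -0.62 without Treg replicate 3, where it was called.

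The list of Treg factors was divided. Of 13 tested, Foxp3 among them, 4 were higher and 6 lower in Th17 (median -0.33). The median was 0.02 without Th17 replicate 2, -0.44 without Th17 replicate 3, 0.0 without Treg replicate 2 and -0.55 without Treg replicate 3. Ikzf2, which encodes Helios, measured 63.4 and 53.9 CPM in Th17, against 358 and 341 CPM in Treg (log2 fold change -2.57 with SE 0.10, and adjusted p = 3.13e-06 by edgeR). Ikzf4, which encodes Eos, measured 55.9 and 68.8 CPM in Th17, against 137 and 127 CPM in Treg (log2 fold change -1.08 with SE 0.14, and adjusted p = 0.000711 by edgeR), and both states were above Th0 at 17.7 and 14.2 CPM. Gata3, which supports Treg function and directs Th2 cells, measured 48.8 and 46.2 CPM in Th17, against 154 and 147 CPM in Treg (log2 fold change -1.66 with SE 0.09, and adjusted p = 1.34e-05 by edgeR). Prdm1, which encodes Blimp-1, was lower, with a log2 fold change of -1.61 (SE 0.23). The 4 higher members were Stat5a, Stat5b, Foxo3 and Runx3, and only Stat5a of these kept its call without Treg replicate 2, where the list counted 1 higher and 5 lower. It counted 2 higher and 6 lower without Th17 replicate 3 or without Treg replicate 3, and 3 and 6 in the fit of 4 libraries.

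Surface genes of Treg cells were lower in Th17 in 11 of 19 cases and higher in 2 (median -0.57). Nrp1, which encodes neuropilin-1, measured 4.58 and 3.18 CPM in Th17, against 28.2 and 23 CPM in Treg (log2 fold change -2.7 with SE 0.25, and adjusted p = 0.000117 by edgeR). The receptor gene Gpr83 measured 6.58 and 5.61 CPM in Th17, against 34 and 33.6 CPM in Treg (log2 fold change -2.46 with SE 0.16, and adjusted p = 2.46e-05 by edgeR). Itgae, the integrin CD103 that TGF-beta induces, measured 16.3 and 14.6 CPM in Th17, against 61.4 and 55.9 CPM in Treg (log2 fold change -1.92 with SE 0.13, and adjusted p = 2.74e-05 by edgeR). Lrrc32, which encodes GARP, the anchor of latent TGF-beta, was lower, with a log2 fold change of -1.62 (SE 0.25), and the costimulatory receptor Tnfrsf9 was lower, with a log2 fold change of -1.19 (SE 0.14). Ctla4, the inhibitory receptor, differed less, at 606 and 498 CPM in Th17, against 783 and 819.9 CPM in Treg (log2 fold change -0.54 with SE 0.10, and adjusted p = 0.00426 by edgeR). In all of these genes both Th17 libraries lay below both Treg libraries. Icos, a costimulatory receptor, and Cd83 were higher, with log2 fold changes of 0.79 and 1.07.

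Suppressor genes did not share 1 direction: 3 of 12 were higher and 5 lower, while the median log2 fold change was 0.13. Gzmb, the granule protease with which some Treg cells kill, measured 48.5 and 42.6 CPM in Th17, against 560.4 and 461 CPM in Treg (log2 fold change -3.48 with SE 0.14, and adjusted p = 3.13e-06 by edgeR). Th0 libraries stood between, at 345 and 326 CPM. The galectin genes Lgals1 and Lgals3 were lower, with log2 fold changes of -0.77 and -1.04, and Tgfb1, which encodes the cytokine itself, was lower, with a log2 fold change of -0.59. The higher members were Il10, Ebi3 and Il12a, and the list had no higher call without Th17 replicate 3 and 1 without Treg replicate 2 or without Treg replicate 3. Ebi3 measured 25 and 29.8 CPM in Th17, against 15 and 18.6 CPM in Treg, and lost its call without Th17 replicate 3 (0.58) or Treg replicate 2 (0.55).

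TGF-beta signalling, shared by both fates, held 4 of 23 genes higher in Th17 and 5 lower (median -0.02), next to 14.8% and 14.5% of all genes. The type I receptor gene Tgfbr1 measured 66.1 and 62.3 CPM in Th17, against 123 and 119 CPM in Treg (log2 fold change -0.91 with SE 0.09, and adjusted p = 0.000139 by edgeR). The signal transducer Smad3 went the other way, at 103 and 118 CPM in Th17, against 56.5 and 61.9 CPM in Treg (log2 fold change 0.90 with SE 0.10, and adjusted p = 0.000323 by edgeR). Tgif1, a corepressor of SMADs, was higher, with a log2 fold change of 0.98, and Ldlrad4, a feedback inhibitor, was lower, with a log2 fold change of -1.01. The feedback gene Smad7 differed by -0.20 (SE 0.11), at 60.7 and 64.8 CPM in Th17, against 75.7 and 68.4 CPM in Treg, and did not pass. The list counted 2 higher and 3 lower without Treg replicate 2.

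Of the IL-1 family, 4 of 13 genes were higher and 2 lower (median -0.02). The decoy receptor Il1r2 was higher like the signalling receptor Il1r1, at 57.5 and 58.6 CPM in Th17, against 9.96 and 9.89 CPM in Treg (log2 fold change 2.55 with SE 0.13, and adjusted p = 8.92e-06 by edgeR). Sigirr, another inhibitory member, was higher, with a log2 fold change of 0.73. Il1b was lower, at 0.94 and 1.21 CPM in Th17, against 5.83 and 2.91 CPM in Treg (log2 fold change -2.05, SE 0.35). Il1b is also made by myeloid cells, whose summed marker levels are given above and whose part in it was not tested. The counts were 3 higher and 1 lower without Th17 replicate 3, Treg replicate 2 or Treg replicate 3, and with DESeq2.

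Th1 and cytotoxic genes were lower in Th17 in 11 of 22 cases and higher in 4 (median -0.85). Ifng measured 5.99 and 3.94 CPM in Th17, against 60.7 and 32.1 CPM in Treg (log2 fold change -3.21 with SE 0.31, and adjusted p = 0.00016 by edgeR). Eomes, the T-box factor of cytotoxic cells, measured 0.999 and 0.757 CPM in Th17, against 16.9 and 15.1 CPM in Treg (log2 fold change -4.16 with SE 0.25, and adjusted p = 1.55e-05 by edgeR). Tbx21, the T-box factor that directs Th1 cells, did not pass, at 22.2 and 23.5 CPM in Th17, against 28.6 and 24.7 CPM in Treg (log2 fold change -0.22 with SE 0.12, and adjusted p = 0.196 by edgeR). Ccl5, Fasl, Nkg7, Hopx and Cxcr3 were lower, with log2 fold changes of -2.07, -1.89, -1.53, -1.26 and -1.05. Against these, Gzma was higher at 145 and 135 CPM in Th17, against 39.7 and 81.6 CPM in Treg (log2 fold change 1.21 with SE 0.26, and adjusted p = 0.00863 by edgeR), opposite to Gzmb. Leaving out Treg replicate 2 gave 2 higher and 9 lower.

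Markers of CD8 T cells and NK cells moved with this list. Cd8a measured 76.4 and 77.3 CPM in Th17, against 282 and 334 CPM in Treg (log2 fold change -2.0 with SE 0.14, and adjusted p = 2.65e-05 by edgeR), and Cd8b1 45.5 and 45.1 CPM in Th17, against 144 and 136 CPM in Treg (log2 fold change -1.63 with SE 0.10, and adjusted p = 2.11e-05 by edgeR). Both markers of the list were lower, and their summed level was 122 and 122 CPM in Th17, 426 and 469 in Treg, 176 and 176 in Th0 and 91.6 and 82 in naive libraries. Of 7 NK cell markers, Eomes among them, 4 were lower and none higher, with summed levels of 34.2 and 34 CPM in Th17, against 153 and 159 CPM in Treg. Klrk1, Klrd1 and Klrc1 were lower, with log2 fold changes of -3.05, -1.83 and -1.61, while Ncr1, the marker most restricted to NK cells, had 0.0587 and 0.0757 CPM in Th17 and 0.131 and 0.153 CPM in Treg, under the limit of 3 counts in every one of the 4 libraries. The part of CD8 T cells in the differences of Gzmb, Ifng, Eomes and the rest of the Th1 list was not tested.

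Interferon-induced genes were lower in Th17. Of 31 tested, 16 were lower and 4 higher (median -0.62). Iigp1, an immunity-related GTPase, measured 2.29 and 0.682 CPM in Th17, against 56.9 and 28.9 CPM in Treg (log2 fold change -4.78 with SE 0.48, and adjusted p = 0.000178 by edgeR). The related GTPase genes Igtp and Irgm1 were lower, with log2 fold changes of -1.09 (SE 0.14) and -1.34 (SE 0.15). The guanylate binding proteins Gbp6 and Gbp7, whose reads may be shared with their near-identical relatives, were lower, with log2 fold changes of -1.57 and -1.61. Irf9, the DNA-binding part of the complex that type I interferon activates, measured 48.2 and 53.9 CPM in Th17, against 90.7 and 88.3 CPM in Treg (log2 fold change -0.81 with SE 0.10, and adjusted p = 0.000498 by edgeR), and Irf7 was lower, with a log2 fold change of -1.16. Ifit3 was at 0.587 and 0.53 CPM in Th17, against 9.89 and 5.21 CPM in Treg (log2 fold change -3.74 with SE 0.38, and adjusted p = 0.000194 by edgeR). Its level was low in all 4 cultured libraries next to 37.4 and 44.6 CPM in the naive libraries. The higher members were Usp18, Bst2, Mx2 and Oas1a, and each lost its call in at least 1 fit. Mx2 lost it without Treg replicate 2, Usp18 without Treg replicate 2 or 3, and Bst2 without Th17 replicate 2, Treg replicate 2 or Treg replicate 3. Oas1a lost it without Th17 replicate 2, Th17 replicate 3 or Treg replicate 3, with DESeq2, with limma-voom and in the fit of 4 libraries. The list counted 1 higher and 10 lower without Treg replicate 2, 1 and 15 without Treg replicate 3, and 2 and 15 without Th17 replicate 2. The part of Ifng, lower in Th17 in the same libraries, in these differences was not tested.

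**Figure D3:**
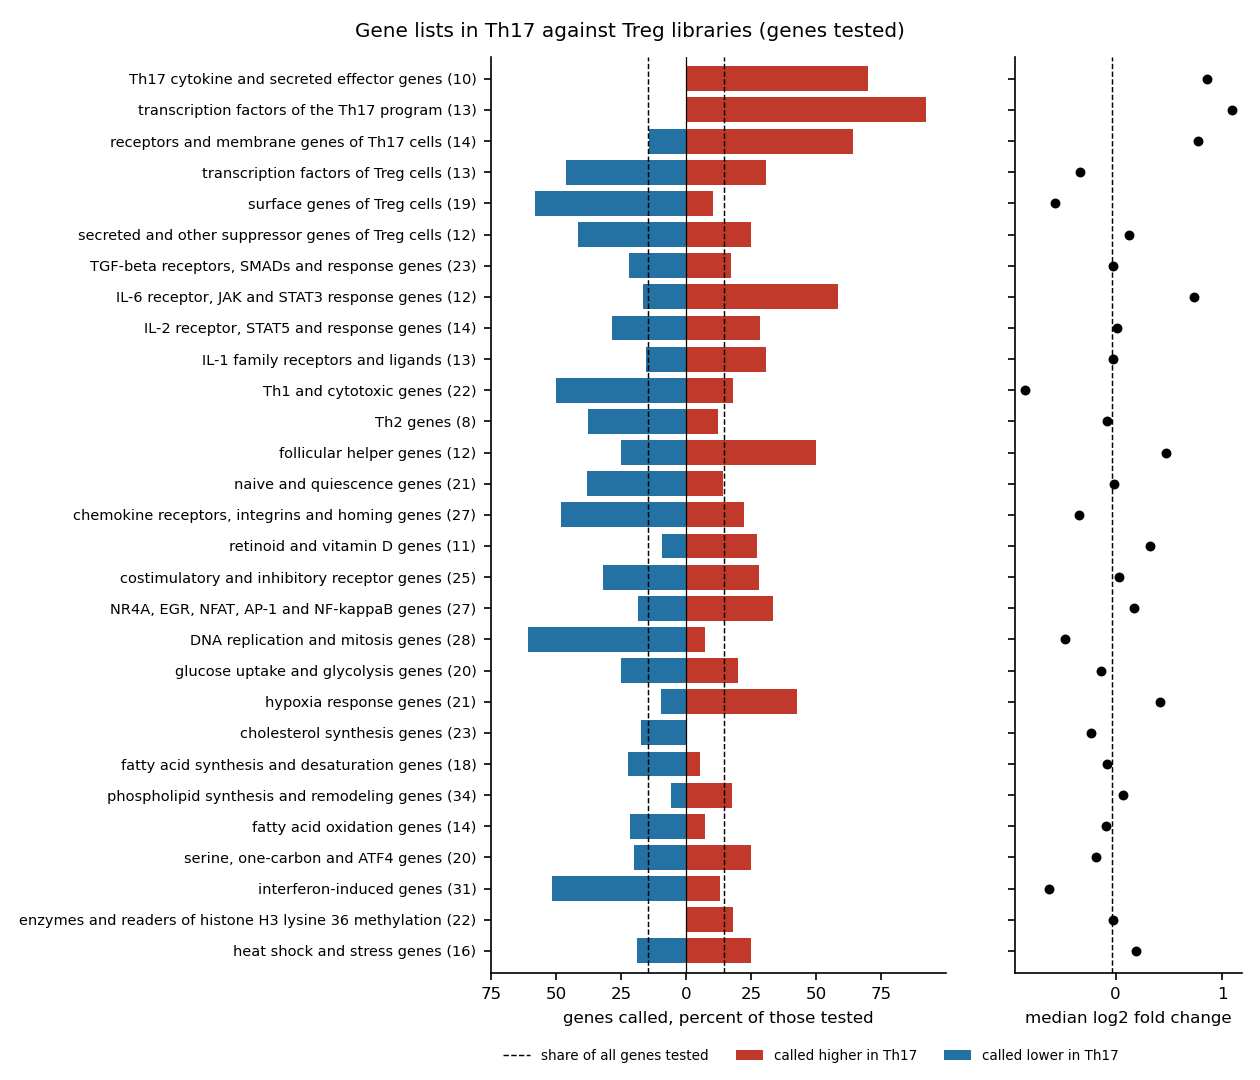
For each gene list other than the cell type markers, with the number of genes tested in parentheses, the left panel gives the percent called higher (red, to the right) and lower (blue, to the left) in Th17, with dashed lines at the shares of all genes tested, 14.8% and 14.5%. The right panel gives the median log2 fold change of the genes tested, with a dashed line at -0.03. Of the lists drawn, Th17 factors have the highest median and Th1 and cytotoxic genes the lowest.

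The DNA replication and mitosis list was lower in Th17 in 17 of 28 cases and higher in 2 (median -0.47). The genes with the lowest log2 fold changes act in the G1 to S transition and in DNA synthesis. Ccne2, a cyclin of that transition, measured 17.5 and 10.8 CPM in Th17, against 50.4 and 40.6 CPM in Treg (log2 fold change -1.67 with SE 0.23, and adjusted p = 0.000947 by edgeR). Ccne1 was lower, with a log2 fold change of -1.07 (SE 0.13). Pcna, the sliding clamp of DNA polymerase, measured 199 and 156 CPM in Th17, against 408 and 330.1 CPM in Treg (log2 fold change -1.05 with SE 0.13, and adjusted p = 0.00057 by edgeR). Tyms, Rrm2, Tk1 and Rrm1, which supply nucleotides, were lower, with log2 fold changes of -1.0, -0.91, -0.88 and -0.72, and the helicase subunit Mcm5 was lower, with a log2 fold change of -0.75. For each of these genes both Th17 libraries lay below both Treg libraries. For Pcna the Th0 libraries stood at 184 and 185 CPM, between the Th17 libraries.

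Some members of the list that act in mitosis did not pass or were higher. Top2a, a topoisomerase that separates chromosomes, did not pass, at 1592 and 1814 CPM in Th17, against 2005 and 1921 CPM in Treg (log2 fold change -0.21 with SE 0.10, and adjusted p = 0.152 by edgeR). Cdc20, an activator of the anaphase-promoting complex, was the highest of the list, at 237 and 304 CPM in Th17, against 171 and 190.3 CPM in Treg (log2 fold change 0.58 with SE 0.13, and adjusted p = 0.0103 by edgeR), and lost its call without Th17 replicate 3 (0.39) or Treg replicate 2 (0.50). The other higher gene, the cyclin Ccnb1 at 0.38, lost its call without Th17 replicate 2 (0.22), Treg replicate 2 (0.33) or Treg replicate 3 (0.43), in the fit of 4 libraries and with upper-quartile scaling. Without Treg replicate 2 the list counted 0 higher and 9 lower, and in every other fit that left out 1 library 1 higher and 14 to 16 lower.

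**Figure D4:**
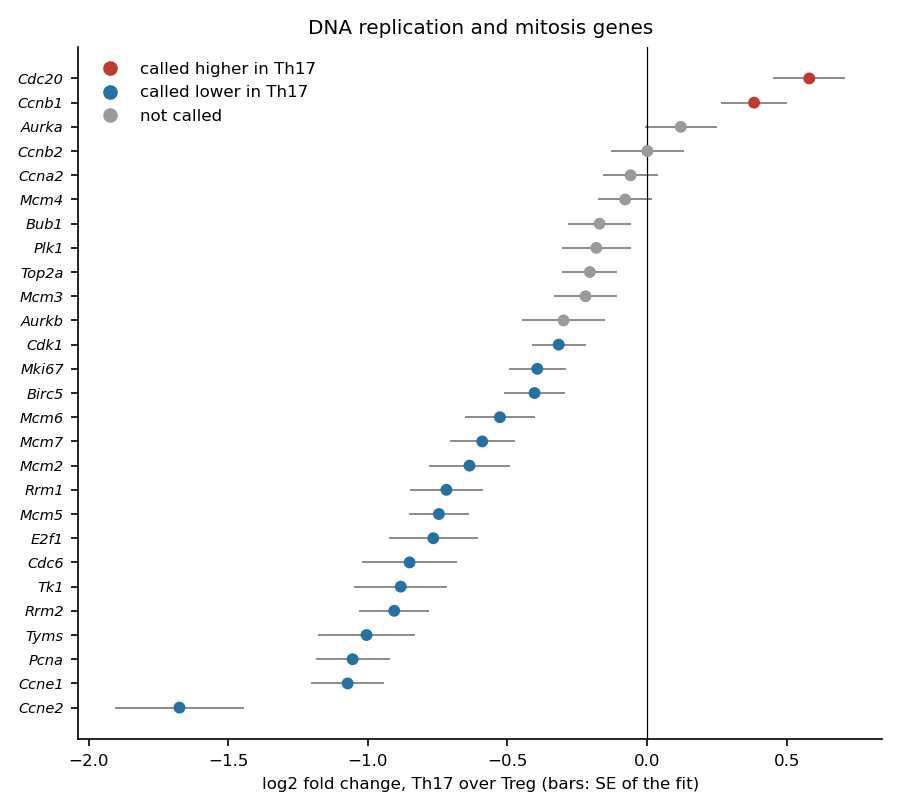
Log2 fold changes of Th17 over Treg with the SE of the fit for 27 DNA replication and mitosis genes, in falling order. Cdc20 and Ccnb1, in red, lie above 0, and the genes called lower, in blue, reach down to Ccne2 at -1.67.

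Among activation factors, 9 of 27 genes were higher in Th17 and 5 lower (median 0.17). Nr4a3, an orphan nuclear receptor that T cell receptor signalling induces, measured 33.7 and 31.7 CPM in Th17, against 229 and 209 CPM in Treg (log2 fold change -2.74 with SE 0.35, and adjusted p = 0.000618 by edgeR), while Th0 stood at 308 and 268 CPM. Jun, an AP-1 subunit, was higher at 135 and 129 CPM in Th17, against 50.9 and 41.2 CPM in Treg (log2 fold change 1.52 with SE 0.11, and adjusted p = 3.51e-05 by edgeR). Junb, Rel and Nfkbia were higher, with log2 fold changes of 0.56, 0.48 and 1.0, and Nfkbia encodes the inhibitor that NF-kappaB itself induces. Most of the lower calls of the list were lost without Treg replicate 2, where Nr4a3 stayed lower and the list median was 0.16. Fewer genes were also called over all genes tested in that fit, and the cause was not tested. Calls of the list were also lost without Treg replicate 3. With the replicate block the list counted 10 higher and 8 lower.

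Costimulatory and inhibitory receptors were divided, with 7 of 25 higher and 8 lower in Th17. Tnfrsf8, which encodes CD30, measured 71 and 60.4 CPM in Th17, against 15 and 18.2 CPM in Treg (log2 fold change 1.99 with SE 0.14, and adjusted p = 3.23e-05 by edgeR). Btla, an inhibitory receptor, measured 394 and 333 CPM in Th17, against 118 and 114 CPM in Treg (log2 fold change 1.65 with SE 0.10, and adjusted p = 2.11e-05 by edgeR). Tnfsf14, the ligand LIGHT, and Tnfrsf25, the death receptor DR3, were higher, with log2 fold changes of 1.81 and 1.45, and Lag3 was higher, with a log2 fold change of 0.72. Cd160 was lower at 0.352 and 0.303 CPM in Th17, against 6.03 and 6.29 CPM in Treg (log2 fold change -4.19 with SE 0.30, and adjusted p = 2.9e-05 by edgeR). Havcr2, which encodes TIM-3, and Pdcd1, which encodes PD-1, were lower, with log2 fold changes of -1.67 and -1.55. Of the 7 higher and the 8 lower genes, both directions thus held inhibitory receptors.

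Of 8 tested Th2 genes 1 was higher and 3 lower, and of 12 follicular helper genes 6 were higher and 3 lower. Among Th2 genes, Ccr8, a chemokine receptor also found on Treg cells, measured 23.7 and 17.8 CPM in Th17, against 133 and 118 CPM in Treg (log2 fold change -2.59 with SE 0.17, and adjusted p = 2.43e-05 by edgeR). Bcl6, the factor that directs follicular helper cells and opposes Prdm1, measured 50.9 and 79.4 CPM in Th17, against 19.3 and 23.8 CPM in Treg (log2 fold change 1.6 with SE 0.20, and adjusted p = 0.000565 by edgeR). Cxcr5, the receptor that leads cells into follicles, measured 86.5 and 100.2 CPM in Th17, against 33.9 and 25.1 CPM in Treg (log2 fold change 1.66 with SE 0.16, and adjusted p = 0.000159 by edgeR). Slamf6 was lower, with a log2 fold change of -1.97. Cxcr5 is also expressed by B cells, whose markers were higher in the Th17 libraries too, and the part of B cells in its level was not tested. With no filter on low counts, the follicular helper list counted 6 higher and 5 lower.

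Naive and quiescence genes were higher in Th17 in 3 of 21 cases and lower in 8. The higher ones were at a share close to the 14.8% of all genes, and the lower ones at a share above the 14.5%. Tcf7, which encodes TCF-1, measured 1037 and 1309 CPM in Th17, against 658 and 646 CPM in Treg (log2 fold change 0.85 with SE 0.12, and adjusted p = 0.000898 by edgeR), and the chromatin organiser Satb1 was higher, with a log2 fold change of 0.65. Dapl1, Cd27 and Klf2, the factor that keeps cells circulating, were lower, with log2 fold changes of -2.72, -1.64 and -1.08. The counts were 4 higher and 5 lower without Treg replicate 2 and 7 higher and 8 lower with no filter on low counts.

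Of 27 chemokine receptors, integrins and homing genes, 6 were higher in Th17 and 13 lower (median -0.34). Besides Itgae, the gut-homing integrin subunits Itga4 and Itgb7 were lower, Itga4 at 120.0 and 127 CPM in Th17, against 240.2 and 246 CPM in Treg (log2 fold change -0.98 with SE 0.09, and adjusted p = 0.00013 by edgeR), and Itgb7 at 314 and 353 CPM in Th17, against 519 and 528 CPM in Treg (log2 fold change -0.65 with SE 0.08, and adjusted p = 0.000679 by edgeR). S1pr4, a sphingosine phosphate receptor, was lower, with a log2 fold change of -0.81. Ccr9, the small intestine homing receptor, was low in both states, at 0.0587 and 0 CPM in Th17, against 1.57 and 0.537 CPM in Treg. The higher genes included Ccr6, Cxcr5 and Ccr2. The list counted 5 higher and 8 lower without Treg replicate 2.

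Retinoid and vitamin D genes gave 3 higher and 1 lower calls of 11 tested genes, and none in either direction without Treg replicate 2. Without Treg replicate 3 there was 1 in each direction, 4 higher and 2 lower in the unfiltered fit, and with a filter at 5 CPM 3 higher and 0 lower. Vdr, the vitamin D receptor, measured 18.4 and 25.4 CPM in Th17, against 5.76 and 8.43 CPM in Treg (log2 fold change 1.63 with SE 0.38, and adjusted p = 0.0123 by edgeR), and lost its call without Th17 replicate 3 (1.39) or Treg replicate 2 (1.37).

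Hypoxia response genes were higher in Th17 in 9 of 21 cases and lower in 2 (median 0.42), while glycolysis genes showed no common direction. Hif1a, the oxygen-sensitive factor, measured 1354 and 1308 CPM in Th17, against 648 and 719 CPM in Treg (log2 fold change 0.96 with SE 0.09, and adjusted p = 0.000101 by edgeR), and Th0 was the highest of the cultured groups at 1510.5 and 1548 CPM. P4ha2, a collagen prolyl hydroxylase gene, Ndrg1 and Mxi1 were higher, with log2 fold changes of 1.85, 1.21 and 0.86. The list counted 6 higher and 0 lower without Treg replicate 2, and the lower calls, of Pdk1 and Egln1, were absent in each fit without Th17 replicate 3, Treg replicate 2 or Treg replicate 3, in the fit of 4 libraries and with upper-quartile scaling. The RLE, unfiltered, DESeq2 and replicate block fits kept 1 lower gene.

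Of 20 glucose uptake and glycolysis genes, 4 were higher and 5 lower in Th17. Pfkfb3, which makes the activator of phosphofructokinase, measured 39.9 and 44.9 CPM in Th17, against 84.7 and 75.7 CPM in Treg (log2 fold change -0.92 with SE 0.14, and adjusted p = 0.00161 by edgeR), and Hk1 was lower, with a log2 fold change of -0.55. Ldha, the lactate dehydrogenase subunit, measured 977 and 737 CPM in Th17, against 1410.1 and 1267 CPM in Treg (log2 fold change -0.64, SE 0.13), and missed the threshold without Treg replicate 2 (-0.56). Hk2 was the reverse of Hk1, at 148 and 98.7 CPM in Th17, against 90.7 and 79.5 CPM in Treg (log2 fold change 0.54 with SE 0.17, and adjusted p = 0.0425 by edgeR), but its call was lost without Th17 replicate 2 (0.21), Treg replicate 2 (0.63) or Treg replicate 3 (0.44), in the fit of 4 libraries and with upper-quartile scaling. The list counted 1 higher and 8 lower without Th17 replicate 2, 3 and 3 without Th17 replicate 3, and 0 and 2 without Treg replicate 2. With no filter on low counts it counted 4 higher and 8 lower.

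Most lipid genes did not pass the test. Of 34 phospholipid synthesis and remodeling genes, the theme of the title, 6 were higher in Th17 and 2 lower, near the background for the first and below it for the second (median 0.07). Enpp2, which encodes autotaxin, the secreted enzyme that makes lysophosphatidic acid, measured 39.1 and 39.2 CPM in Th17, against 4.06 and 7.9 CPM in Treg (log2 fold change 2.72 with SE 0.26, and adjusted p = 0.000143 by edgeR). Th0 libraries were at 9.64 and 11 CPM. Mboat1, a lysophospholipid acyltransferase, was lower at 9.93 and 6.67 CPM in Th17, against 25.7 and 21.2 CPM in Treg (log2 fold change -1.49 with SE 0.22, and adjusted p = 0.00129 by edgeR). Gpx4, the peroxidase that repairs oxidised phospholipids, measured 108 and 107 CPM in Th17, against 62.1 and 71.5 CPM in Treg (log2 fold change 0.68 with SE 0.11, and adjusted p = 0.00223 by edgeR). Pla2g12a, a secreted phospholipase A2, was higher, with a log2 fold change of 0.90. Without Treg replicate 2 the list counted 3 higher and 1 lower, and 1 was also the lower count without Th17 replicate 2 or Treg replicate 3, in the fit of 4 libraries, with DESeq2 and with limma-voom.

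Of 23 cholesterol synthesis genes none was higher and 4 were lower, and the median log2 fold change was -0.23. The lower ones were at a share near the 14.5% of all genes. Mvk, mevalonate kinase, measured 20.6 and 19.7 CPM in Th17, against 35.5 and 38.1 CPM in Treg (log2 fold change -0.87 with SE 0.14, and adjusted p = 0.00181 by edgeR), and Pmvk was lower, with a log2 fold change of -0.52. Of 18 fatty acid synthesis and desaturation genes, 1 was higher and 4 lower, and the desaturase genes Scd1 and Fads1 were lower, with log2 fold changes of -0.70 and -0.60. Of 14 fatty acid oxidation genes, 1 was higher and 3 lower, and the higher one, Hadhb of the trifunctional protein, measured 27.4 and 37 CPM in Th17, against 13.1 and 15.4 CPM in Treg (log2 fold change 1.17 with SE 0.18, and adjusted p = 0.00143 by edgeR). Without Treg replicate 2 these lists counted 0 higher and 2 lower, 0 and 2, and 1 and 1. Without Th17 replicate 3 they counted 0 and 2, 0 and 3, and 1 and 1. Without Treg replicate 3 the fatty acid lists counted 0 and 3, and 1 and 1. The cholesterol list counted 2 higher and 5 lower with DESeq2, with the replicate block or without Th17 replicate 2, 2 and 6 in the fit of 4 libraries, and 4 and 7 with no filter on low counts. The fatty acid synthesis list counted 2 higher and 4 lower with RLE scaling, with a filter at 5 CPM, with DESeq2 and with limma-voom.

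Of 20 serine, one-carbon and ATF4 genes, 5 were higher and 4 lower, while the median log2 fold change was -0.18. Phgdh, the first enzyme of serine synthesis, measured 151 and 129 CPM in Th17, against 238 and 236 CPM in Treg (log2 fold change -0.76 with SE 0.10, and adjusted p = 0.00059 by edgeR), and the amino acid transporters Slc7a5 and Slc7a11 were lower, with log2 fold changes of -0.57 and -1.76. Aldh1l2, a mitochondrial folate enzyme, and the stress gene Sesn2 were higher, with log2 fold changes of 1.55 and 0.82. The counts were 2 higher and 3 lower without Treg replicate 2, 3 and 3 without Treg replicate 3, 4 and 8 without Th17 replicate 2, and 5 and 7 with no filter on low counts or with the replicate block.

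Setd2, the enzyme of the title, which trimethylates lysine 36 of histone H3, did not pass between the 2 states. On chromosome 9 from 110532597 to 110618633 on GRCm38, it measured 181 and 215 CPM in Th17, against 169 and 168 CPM in Treg (log2 fold change 0.23 with SE 0.11, and adjusted p = 0.14 by edgeR). Without Th17 replicate 2 the log2 fold change was 0.35 and passed (edgeR adjusted p = 0.0456). Of 22 enzymes and readers of this mark, 4 were higher and none lower (median -0.02), the higher ones at a share close to the 14.8% of all genes. Zmynd11, a reader of the mark on a histone H3 variant, measured 187 and 204 CPM in Th17, against 129 and 124 CPM in Treg (log2 fold change 0.63 with SE 0.10, and adjusted p = 0.00187 by edgeR), and Whsc1l1, an older symbol of the methyltransferase gene Nsd3, was higher, with a log2 fold change of 0.57. Whsc1l1 was at 0.47 and not called without Treg replicate 2, where the list counted 1 higher gene. The list counted 2 higher genes without Th17 replicate 3, 6 higher and 1 lower without Th17 replicate 2, and 5 and 1 with no filter on low counts or with the replicate block.

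Stress genes were higher in 4 of 16 cases and lower in 3. The inducible heat shock gene Hspa1b measured 32.2 and 132 CPM in Th17, against 6.22 and 6.44 CPM in Treg (log2 fold change 3.69 with SE 0.67, and adjusted p = 0.00389 by edgeR). Both Th17 libraries lay above both Treg libraries, but they were far apart from each other, and the Th0 libraries were higher still at 247 and 286 CPM. The near-identical Hspa1a, which may share reads with it, behaved alike (3.67, SE 0.66). The metallothionein gene Mt2 was lower at 2.06 and 3.11 CPM in Th17, against 11.8 and 11.2 CPM in Treg (log2 fold change -2.17 with SE 0.29, and adjusted p = 0.000802 by edgeR), and Hmox1, heme oxygenase, was lower, with a log2 fold change of -0.89. Gadd45a, a growth arrest gene, was higher, with a log2 fold change of 1.5. With no filter on low counts the list counted 7 higher and 5 lower.

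The genes with the highest and lowest fold changes were taken from those called, apart by library and at 10 CPM or more in the higher state, whether or not a list holds them. The 12 highest were Serpinb5, Iyd, Gramd2, Cox6a2, Alpl, Sox5, Epha2, Ptpn5, Ppp1r14c, Prr29, Notch3 and Gipr, between 4.18 and 6.99. Serpinb5, which encodes the serpin maspin, measured 16.7 and 21 CPM in Th17, against 0.262 and 0 CPM in Treg (log2 fold change 6.99 with SE 0.45, and adjusted p = 3.47e-05 by edgeR). The Th0 libraries stood at 42.6 and 43.9 CPM, so that the Treg libraries were the low ones among the cultures. Iyd, an iodotyrosine deiodinase, measured 12.4 and 15 CPM in Th17, against 0.0655 and 0.153 CPM in Treg, which came from 3 counts. The ratio of Th17 over Treg was 128, with an exact 95% counting interval from 43.4 to 622, and no Th0 or naive library had a count of it. Sox5, a SOX family factor, measured 23 and 21 CPM in Th17, against 0.0655 and 1.3 CPM in Treg (log2 fold change 5.07 with SE 0.58, and adjusted p = 0.000349 by edgeR). Notch3, a Notch receptor, measured 24 and 31.5 CPM in Th17, against 1.31 and 1.76 CPM in Treg (log2 fold change 4.18 with SE 0.27, and adjusted p = 2.43e-05 by edgeR), and Th0 stood at 19.5 and 22.9 CPM. Alpl, the tissue-nonspecific alkaline phosphatase, measured 37.8 and 41.8 CPM in Th17, against 1.11 and 1.23 CPM in Treg (log2 fold change 5.08 with SE 0.23, and adjusted p = 4.24e-06 by edgeR). Ppp1r14c, an inhibitor of protein phosphatase 1, measured 30.8 and 27.6 CPM in Th17, against 1.11 and 1.76 CPM in Treg (log2 fold change 4.35, SE 0.38), and Th0 was at 0.264 and 0 CPM.

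The 12 lowest included Ifit1bl1, Foxp3, Ptrf, Iigp1, Lcn10, Eomes, Drc1, Pydc3, Scin, Samd3 and Pydc4, between -5.65 and -3.75. Ptrf, an older symbol of Cavin1, a coat protein of caveolae, measured 0.705 and 0.682 CPM in Th17, against 23.8 and 17.1 CPM in Treg (log2 fold change -4.87 with SE 0.42, and adjusted p = 8.36e-05 by edgeR). Lcn10, a lipocalin, measured 1.17 and 1.67 CPM in Th17, against 26.9 and 26.8 CPM in Treg (log2 fold change -4.25 with SE 0.42, and adjusted p = 0.000164 by edgeR). For both genes the Th17, Th0 and naive libraries were all under 2 CPM. Drc1, a subunit of the dynein regulatory complex of cilia, was lower, with a log2 fold change of -3.98, and Scin, an actin-severing protein, was lower, with a log2 fold change of -3.78. The pyrin domain genes Pydc3 and Pydc4 and Ifit1bl1, an IFIT family gene, had their highest levels in the naive libraries, where Pydc4 stood at 224 and 245 CPM, compared with 1.23 and 0.833 CPM in Th17 and 16.6 and 11.7 CPM in Treg.

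B cell genes stood out on the Th17 side, although both cultures were labelled as CD4+ T cells. Of 14 B cell markers, 11 were higher in Th17 and 1 lower (median 1.63). Pax5, the factor that sets B cell identity, measured 130.2 and 135 CPM in Th17, against 7.01 and 19.5 CPM in Treg (log2 fold change 3.34 with SE 0.37, and adjusted p = 0.000279 by edgeR). Ebf1, another such factor, measured 39.1 and 49.2 CPM in Th17, against 5.9 and 5.44 CPM in Treg (log2 fold change 2.96 with SE 0.16, and adjusted p = 9.63e-06 by edgeR). Cd79a was higher, with a log2 fold change of 1.2 (SE 0.18). Ms4a1, which encodes CD20, did not pass, at 14.5 and 12.4 CPM in Th17, against 13.7 and 11 CPM in Treg (log2 fold change 0.13, SE 0.25). Fcer2a, which encodes CD23, was the lower one, at 3.64 and 6.74 CPM in Th17, against 22.8 and 12.7 CPM in Treg (log2 fold change -1.8 with SE 0.33, and adjusted p = 0.004 by edgeR).

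All 3 plasma cell markers were also higher in Th17. Their summed level was 75.8 and 71.7 CPM in Th17, against 9.43 and 10.3 CPM in Treg. Mzb1 measured 49.5 and 48.8 CPM in Th17, against 4.19 and 5.21 CPM in Treg (log2 fold change 3.39 with SE 0.18, and adjusted p = 8.69e-06 by edgeR), and Sdc1, which encodes CD138, 22.7 and 20.2 CPM in Th17, against 3.8 and 4.06 CPM in Treg (log2 fold change 2.45 with SE 0.21, and adjusted p = 8.27e-05 by edgeR). Jchain was low in both, at 3.64 and 2.73 CPM in Th17, against 1.44 and 1.07 CPM in Treg, and lost its call without Th17 replicate 2, Treg replicate 2 or Treg replicate 3 (1.09, 1.58 and 1.15) and with limma-voom (1.33). Antigen receptor segments are a class chosen after the values were seen. Of 160 tested immunoglobulin variable segments, 43 were higher in Th17 and 1 lower, next to 14.8% and 14.5% of all genes. All 218 segments together summed to 134 and 141 CPM in Th17, against 55 and 47.9 CPM in Treg and 75.1 and 66.8 CPM in Th0. In the naive libraries they summed to 1357 and 1378 CPM, so that many may have passed the filter on low counts only through those. Of 11 immunoglobulin constant segments, 7 were higher and 3 lower. Of 87 T cell receptor variable segments none was higher and 5 were lower, a share below the 14.5% of all genes, and of 7 constant segments none was higher and 6 were lower, with summed levels of 674 and 693 CPM in Th17, against 933 and 962 CPM in Treg. The part of B lineage cells in the genes higher in Th17 was not tested.

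T cell genes were lower in Th17. Of 18 pan T cell markers none was higher and 11 were lower (median -0.45), and their summed level was 4874 and 4920.3 CPM in Th17, against 6175 and 6332 CPM in Treg. Cd3e measured 167 and 193 CPM in Th17, against 262 and 269.7 CPM in Treg (log2 fold change -0.56 with SE 0.09, and adjusted p = 0.00207 by edgeR), and Thy1 409 and 346 CPM in Th17, against 693 and 721 CPM in Treg (log2 fold change -0.90 with SE 0.11, and adjusted p = 0.00043 by edgeR). Trat1 and Ubash3a, which act at the T cell receptor, were lower, with log2 fold changes of -2.24 and -1.33. Cd4 itself did not pass, at 763 and 837 CPM in Th17, against 713 and 821 CPM in Treg (log2 fold change 0.06 with SE 0.09, and adjusted p = 0.668 by edgeR).

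Myeloid and dendritic markers were divided, with 4 of 24 higher in Th17 and 11 lower, and summed levels that overlapped. The Th17 sums of 176 and 188 CPM included Flt3 at 56.4 and 54 CPM. The Treg sums of 208 and 174 CPM included it at 15.9 and 9.12 CPM. Lyz2, lysozyme, measured 8.05 and 7.65 CPM in Th17, against 27.6 and 21.5 CPM in Treg (log2 fold change -1.65 with SE 0.14, and adjusted p = 7.47e-05 by edgeR), and Csf1r was lower, with a log2 fold change of -1.37. Flt3, a receptor of dendritic precursors, was higher at 56.4 and 54 CPM in Th17, against 15.9 and 9.12 CPM in Treg (log2 fold change 2.13 with SE 0.21, and adjusted p = 0.000178 by edgeR). The dendritic marker Siglech had no count in any of the 4 libraries, and Xcr1 had none in Th17 and 0 and 0.153 CPM in Treg, under the limit of 3 counts. The counts were 1 higher and 9 lower without Treg replicate 2, 2 and 9 without Th17 replicate 3, 2 and 10 without Treg replicate 3, and 2 and 8 in the fit of 4 libraries. None of 7 red blood cell and 4 platelet markers was called, with summed levels of 2.88 and 0.606 and 5.7 and 7.8 CPM in Th17 and 4.13 and 2.91 and 7.6 and 6.75 CPM in Treg. In the fit of the 4 libraries alone, only 1 red blood cell and 1 platelet marker had enough counts to be tested. The red blood cell markers summed to 383 and 315 CPM in the naive libraries. With 4 red blood cell and 2 platelet markers at no count in Th17, the lack of calls cannot show that the 2 states were alike. At an unadjusted p under 0.05 the numbers of these markers were 0 and 0, and 1 red blood cell marker was called lower without Th17 replicate 2, without Treg replicate 3, and in the unfiltered fit.

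Of 7 gamma delta and innate-like T cell markers, 1 was higher in Th17 and 3 were lower. The higher one was Blk, which the B cell list also holds, at 58.5 and 68.9 CPM in Th17, against 10.3 and 12.1 CPM in Treg (log2 fold change 2.51 with SE 0.14, and adjusted p = 1.34e-05 by edgeR). The constant segment genes Trdc, Tcrg-C1 and Tcrg-C2 were lower, with log2 fold changes of -1.29, -1.44 and -2.19. The level of Trdc was 2.58 and 3.41 CPM in Th17, against 7.21 and 7.36 CPM in Treg. Gamma delta T cells are a known source of IL-17A, and their part in the level of Il17a was not tested. The summed level of the list, Blk included, was 70.6 and 85.3 CPM in Th17, against 42.8 and 40.9 CPM in Treg. In the fit of 4 libraries 2 markers were higher and 3 lower.

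**Figure D5:**
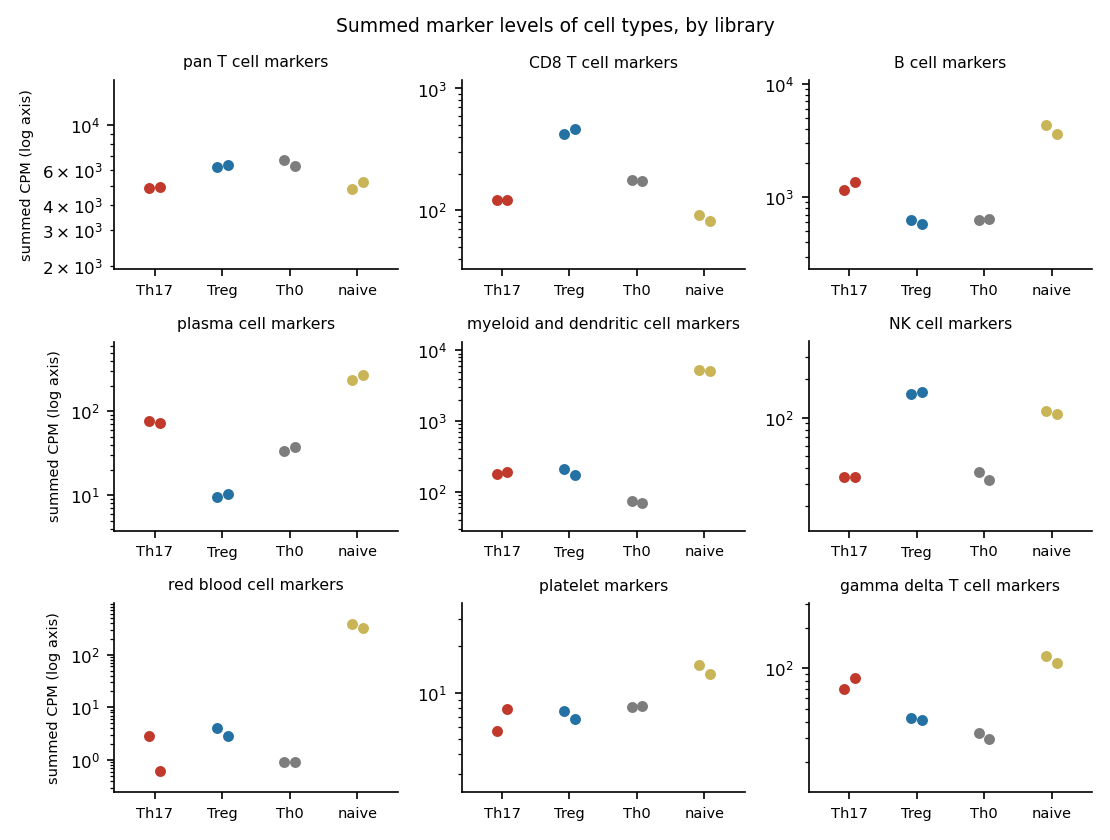
Summed CPM of the marker genes of 9 cell types, on log axes that differ between panels, with 1 point per library and the groups Th17, Treg, Th0 and naive from left to right. B cell and plasma cell sums are higher in Th17 than in Treg, CD8 and NK sums are lower, and the naive libraries have the highest myeloid sums.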

How the data were processed

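TRIzol was used for RNA extraction and an Illumina HiSeq platform for sequencing, per the labels' protocols. Bowtie2, RSEM, mm10 and GRCm38.p6 appear in the submitters' processing notes, and tool versions, annotation and strandedness are not given in the sources used here. Per the file headers, the deposited table gives a count and an FPKM value per gene and library. The deposited counts are whole numbers, with no statement of whether RSEM estimates were rounded. FPKM, as deposited, equalled the count over the library total and 1 length per gene for 100.0% of 134607 values, within a relative tolerance of 0.001, and served only to set genes side by side per length. Of 34745 rows, 34344 matched GENCODE M21 on GRCm38 by identifier, and 80.8% of these had identical coordinates.

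Counts of all 8 libraries were fitted with edgeR 4.0.16 (R 4.3.3, limma 3.58.1) as group means, so that the spread was estimated on 4 residual degrees of freedom. The steps were filterByExpr by group, TMM scaling, glmQLFit and glmQLFTest of Th17 minus Treg, with Benjamini-Hochberg adjustment over 14690 genes. The biological coefficient of variation was 0.13. SE is the log2 fold change over the square root of F. The fit was checked on simulated counts with known changes. Alternatives were RLE and upper-quartile scaling, no filter and a filter at 5 CPM, DESeq2 1.42.0, limma-voom, the 4 libraries alone, glmTreat at 2-fold, a block on the replicate number, and each library left out in turn, which leaves a state with 1 library that is assumed to vary like the other groups. The genes, gene lists and the comparison were chosen with earlier results of these data known. Genes named are the 12 highest and 12 lowest log2 fold changes among called genes at a mean of 10 CPM or more in the higher state with no overlap of the libraries, fixed lineage genes, and up to 4 called members per list with others given for their level or lack of a call; predicted genes, pseudogenes and receptor segments were left out of the first. Some named genes are not reported here. Without strand information, reads of overlapping or antisense genes cannot be told apart, and near-identical genes may share reads.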

Additional observations from a re-analysis of the deposited data

How the results depend on the processing

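The direction of every gene called in both fits was the same under every alternative. The number of genes called was 3540 in the fit of the 4 libraries alone, 4989 with no filter on low counts, 4244 with RLE scaling, 4251 with upper-quartile scaling, 4033 with a filter at 5 CPM, 3862 with DESeq2 and 4265 with limma-voom. These settings moved the median log2 fold change of all genes by 0.025 at most. The test against a 2-fold change called 456 genes, 278 higher and 178 lower in Th17, a count that is smaller by construction, and 80 of the 191 called genes named above passed it. With 1 library left out the count ranged from 1878 to 4338, with 1026 to 2153 higher and 852 to 2185 lower. Of the 191 genes, 167 kept their call in all alternatives other than the 2-fold test. Signs turned only for genes that were not called and only with a library left out: Il17a ranged from -0.45 to 0.47, Csf2 from -0.66 to 0.62, Cish from -0.62 to 0.38, Cd4 from -0.04 to 0.16, Ms4a1 from -0.03 to 0.30 and Stat3 from -0.17 to 0.01. The cause of these shifts was not tested. Th17 and Treg libraries share the replicate numbers 2 and 3, but no label says that a number marks a shared source. The difference of replicate 2 minus replicate 3 correlated across genes between Th17 and Treg with r = 0.103 over 14690 genes and 0.172 over the 9169 genes with a mean of 10 CPM or more. With the replicate block 4165 genes were called, and 4145 in the block fit of the 4 libraries. With 2 libraries a state, genes under about 1 CPM rest on few counts, and differences there were not detectable at this depth unless many-fold.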

Other observations

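Among classes of genes, 19 of 267 tested lincRNA genes were higher in Th17 and 27 lower, and 1946 and 1991 of 12884 protein-coding genes were higher and lower. Antisense genes gave 23 higher and 24 lower of 274, and processed pseudogenes 8 higher and 15 lower of 135. Of 11 immunoglobulin constant segments 7 were higher in Th17 and 3 lower, with a summed level of 705 and 844 CPM in Th17, against 539 and 472 CPM in Treg. These classes were looked at after the values were seen.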
